A study of Mus musculus with 6 samples.

Results

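Cadherins and protocadherins, the calcium-dependent adhesion receptors of the cell surface, were measured in mouse embryonic fibroblasts (MEFs) with and without Atxn3, the gene of the deubiquitinating enzyme ataxin-3. The members are the genes whose symbols begin with Cdh and a digit, Pcdh, Fat and a digit, Dsc, Dsg or Celsr on probe sets that name 1 gene. They came to 69 of the 18193 genes measured, read by 124 of 45037 probe sets, and each gene was represented by its probe set with the highest mean over all arrays. Dscam, Dscaml1 and Dscc1 carry the same letters but are no cadherins, and these 3 genes were set aside.

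RNA from 3 Atxn3-KO and 3 Atxn3-WT MEF samples was hybridised to 6 Affymetrix mouse genome arrays, to ask which transcripts depend on Atxn3. The Atxn3-KO cells come from Atxn3 knockout mice and the Atxn3-WT cells from wildtype mice, and the labels name no treatment for either. The methods call the samples biological replicates but also speak of a MEF cell line for each genotype, and do not say whether the replicates are separate embryos or cultures. The p-values here therefore reflect the spread among these 6 samples alone, part or all of which may be technical, and a genotype that rests on 1 line cannot be told apart from that line.

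Classical cadherins join like to like across the gap between neighbouring cells and hold the actin skeleton through catenins, and the desmosomal cadherins (desmogleins and desmocollins) do the same for intermediate filaments. Fat and Celsr cadherins are giant receptors best known for aligning cells within a tissue plane. Protocadherins are the largest branch and are known above all from neurons, where those encoded in the alpha, beta and gamma gene clusters give each cell its own surface identity. Fibroblasts are held together mostly by N-cadherin (Cdh2) and OB-cadherin (Cdh11), and E-cadherin (Cdh1) is the mark of epithelia.

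All values are log2 levels after robust multi-array averaging (RMA), and differences are Atxn3-KO minus Atxn3-WT on the log2 scale with the standard error (SE) of the limma fit. RMA gives no detection call, so a level below the 25th percentile of every array (4.364 to 4.387) was treated as background, and a fold change against such a group is not exact. The median of an array was 5.968 to 6.002. Levels of different probe sets depend on their probes and do not rank genes. In bulk RNA, fewer cells of a type and less RNA per cell cannot be told apart.

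The brighter Atxn3 probe set gave 3.60, 3.43 and 3.73 in Atxn3-KO MEFs, against 6.53, 6.81 and 6.66 in Atxn3-WT MEFs, so the labels held on every array. The dimmer Atxn3 probe set had 3.905, 4.28 and 4.21 in Atxn3-KO and 4.25, 4.45 and 4.73 in Atxn3-WT MEFs. Its groups overlapped, and it did not pass (-0.35, limma adjusted p = 0.117). Where the probes of either probe set lie relative to the disrupted part of the gene was not checked. Arrays of 1 genotype correlated at 0.9985 to 0.9989, and arrays of different genotypes at 0.9925 to 0.9935. The fibroblast label was borne out by 9 of 10 markers that lay above the array median (Lum was at background), and their mean level over all 10 was 11.90 to 11.95 in Atxn3-KO and 11.85 to 11.86 in Atxn3-WT MEFs. Most of the epithelial (7 of 11), endothelial (6 of 8), skeletal muscle (6 of 8) and neural crest (4 of 6) markers stayed below the median in both genotypes, but fewer of the neural (3 of 8) and macrophage (4 of 8) markers did. None of the 8 macrophage markers passed the test, and their mean level was 5.34 to 5.41 in Atxn3-KO and 5.30 to 5.38 in Atxn3-WT MEFs.

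More members were lower than higher in Atxn3-KO MEFs, and only a few differed by a wide margin. At an adjusted p under 0.05, 4 of the 69 members were higher in Atxn3-KO MEFs (5.80%, against 17.1% of all genes) and 15 were lower (21.7%, against 14.7% of all genes), and 50 did not pass. The 4 higher genes were Pcdh7, Cdh3, Pcdh9 and Fat2. The 15 lower genes were Cdh13, Pcdh17, Fat1, Celsr1, Celsr2, Pcdh19, Pcdh10, Cdh11, Cdh26 and 6 beta protocadherins. Under the stricter thresholds of the study (at least a 2-fold change, adjusted p no higher than 0.001), 1 member was higher (Pcdh7, where 1.28% of all genes passed) and 2 were lower (Cdh13 and Pcdh17, where 0.649% passed).

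The 3 arrays of one genotype lay wholly apart from the 3 of the other in 24 members (34.8%), against 49.2% of all genes. These were the 19 that passed and Cdh2, Fat4, Pcdh18, Pcdh20 and Cdh18. The median difference was -0.03 over the members and 0.0021 over all genes. Only 7 of the 19 moved by at least 0.5 on the log2 scale, and the other 12 moved by 1.12 to 1.40-fold. Much of the superfamily was dim: 51 members lay below the array median in both genotypes and 23 of these were at background in both. The plot of differences by subfamily shows Pcdh7, Cdh13 and Pcdh17 far from the rest. The subfamilies are small, and their counts below are a description beside the shares of all genes (17.1% higher and 14.7% lower).

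**Figure D1:**
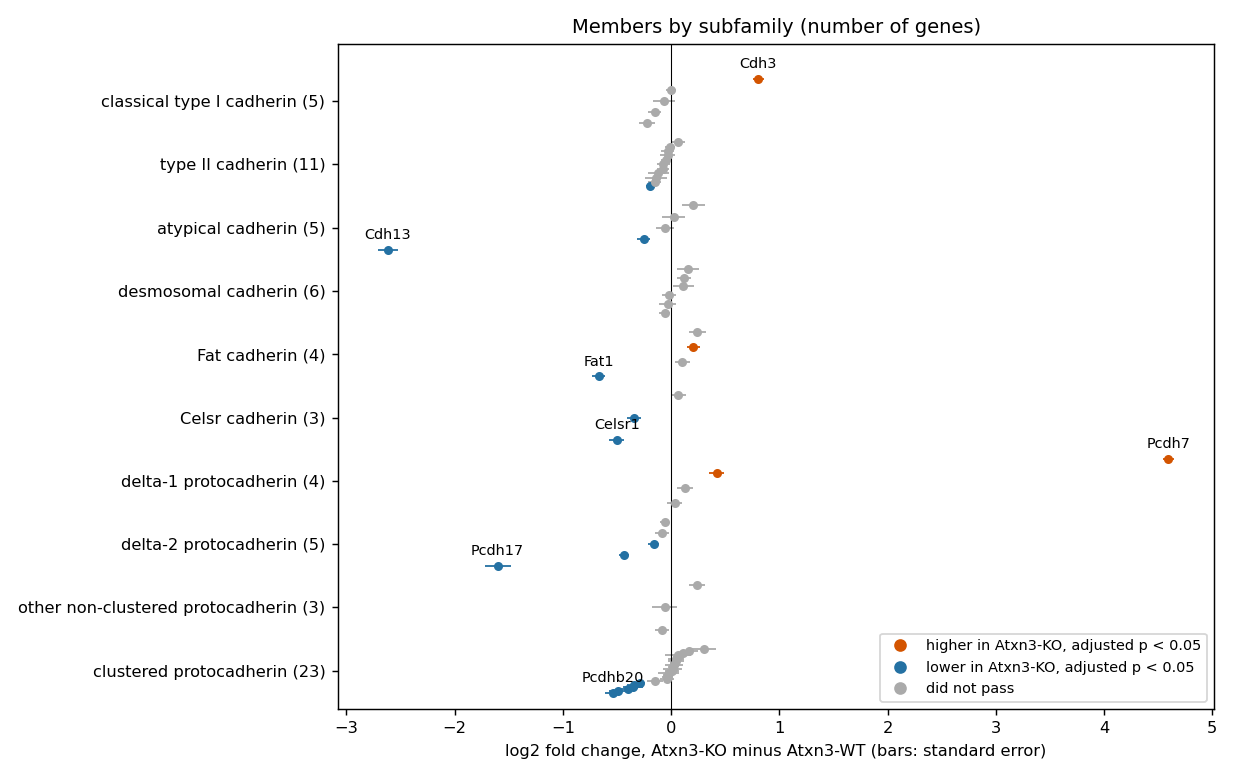
Log2 fold change (Atxn3-KO minus Atxn3-WT, horizontal axis) of each of the 69 members, 1 point per gene with its standard error as a bar, set out by subfamily down the page. Orange points were higher and blue points lower at an adjusted p under 0.05, and gray points did not pass. Pcdh7 stands at 4.59, Cdh13 at -2.61 and Pcdh17 at -1.60, while the 50 members that did not pass lie between -0.22 and 0.30.

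Among the 5 classical type I cadherins, which bind beta-catenin directly, 1 was higher and none was lower. P-cadherin (Cdh3), a cadherin of placenta and of basal epithelia, had 9.23, 9.21 and 9.26 in Atxn3-KO MEFs, against 8.37, 8.40 and 8.51 in Atxn3-WT MEFs. Every Atxn3-KO array lay above every Atxn3-WT array, a difference of 0.81 (SE 0.050, limma adjusted p = 4.8e-05). Its dimmer probe set differed by 0.24 and did not pass (adjusted p = 0.129).

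N-cadherin (Cdh2), the type I cadherin of mesenchymal and neural cells, had 11.59, 11.53 and 11.68 in Atxn3-KO MEFs, against 11.69, 11.94 and 11.83 in Atxn3-WT MEFs. The highest Atxn3-KO array lay only just under the lowest Atxn3-WT array, and the difference of -0.22 (SE 0.074) did not pass (adjusted p = 0.069). The second Cdh2 probe set, at 10.67, 10.64 and 10.59 in Atxn3-KO and 10.85, 10.80 and 10.85 in Atxn3-WT MEFs, passed with a difference of -0.20 (adjusted p = 0.015). The brighter one also passed under 4 of the alternatives, one of them without Atxn3-WT replicate 1 (-0.28, adjusted p = 0.030).

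E-cadherin (Cdh1), whose loss marks a mesenchymal state, was at background in every sample, with 3.90, 3.96 and 3.98 in Atxn3-KO and 3.93, 3.91 and 3.99 in Atxn3-WT MEFs. M-cadherin (Cdh15), a cadherin of skeletal muscle precursors, had 6.19, 6.04 and 5.88 in Atxn3-KO MEFs, against 6.28, 6.04 and 5.97 in Atxn3-WT MEFs, and the groups overlapped. R-cadherin (Cdh4), known from retina, differed by -0.15 and did not pass (adjusted p = 0.106).

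Type II cadherins lack the HAV adhesion motif of type I and are known for sorting neuronal and mesenchymal cells. Of 11 measured, 1 was lower and none was higher. OB-cadherin (Cdh11), named for osteoblasts and abundant in fibroblasts, had 12.31, 12.33 and 12.33 in Atxn3-KO MEFs, against 12.52, 12.52 and 12.52 in Atxn3-WT MEFs. The shift was small but wider than the spread, -0.19 (SE 0.039, adjusted p = 0.0098), and its dimmer probe set was lower by more, -0.45 (adjusted p = 0.0016).

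VE-cadherin (Cdh5), which defines endothelium, had 5.01, 4.97 and 5.08 in Atxn3-KO and 5.03, 5.07 and 5.002 in Atxn3-WT MEFs, with overlapping groups and a difference near 0 (-0.01, adjusted p = 0.906). Among the others of this class, Cdh7, Cdh8, Cdh9, Cdh18 and Cdh19 were at background in both genotypes, and Cdh6, Cdh10, Cdh20 and Cdh22 differed by -0.12 to 0.07, with none past the test. For Cdh10, 1 of 4 probe sets was lower all the same (-0.36, adjusted p = 0.010), at levels near background.

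The cadherins grouped here as atypical share the ectodomain but were placed outside types I and II, and 2 of 5 were lower. T-cadherin (Cdh13), which is tethered to the membrane by a lipid anchor and serves as a receptor for adiponectin, had 5.41, 5.33 and 5.67 in Atxn3-KO MEFs, against 7.99, 8.09 and 8.18 in Atxn3-WT MEFs. All Atxn3-KO arrays fell below the array median and all Atxn3-WT arrays above it, and the 6.12-fold difference was many times the SD of 0.18 and 0.092 within the genotypes. A second probe set gave 5.32, 5.55 and 5.16 in Atxn3-KO and 7.88, 7.75 and 8.05 in Atxn3-WT MEFs, and the third gave 4.33, 4.497 and 4.26 in Atxn3-KO and 5.16, 5.26 and 5.55 in Atxn3-WT MEFs.

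Cdh13 changed to an unequal extent across these probe sets, -2.55 in the second (SE 0.11) and -0.96 in the third (SE 0.11, adjusted p = 0.00077). The fourth lay at background in both genotypes and gave no reading of the gene. Cdh26 had 4.53, 4.49 and 4.71 in Atxn3-KO MEFs, against 4.81, 4.84 and 4.83 in Atxn3-WT MEFs, a difference of -0.25 (adjusted p = 0.022) close to background that was lost in 5 of the 6 fits with 1 array left out. Cdh16, a cadherin of kidney, Cdh17, of intestine, and Cdh23, a component of the tip links of hair cells, differed by -0.06, 0.02 and 0.21 and did not pass.

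**Figure D2:**
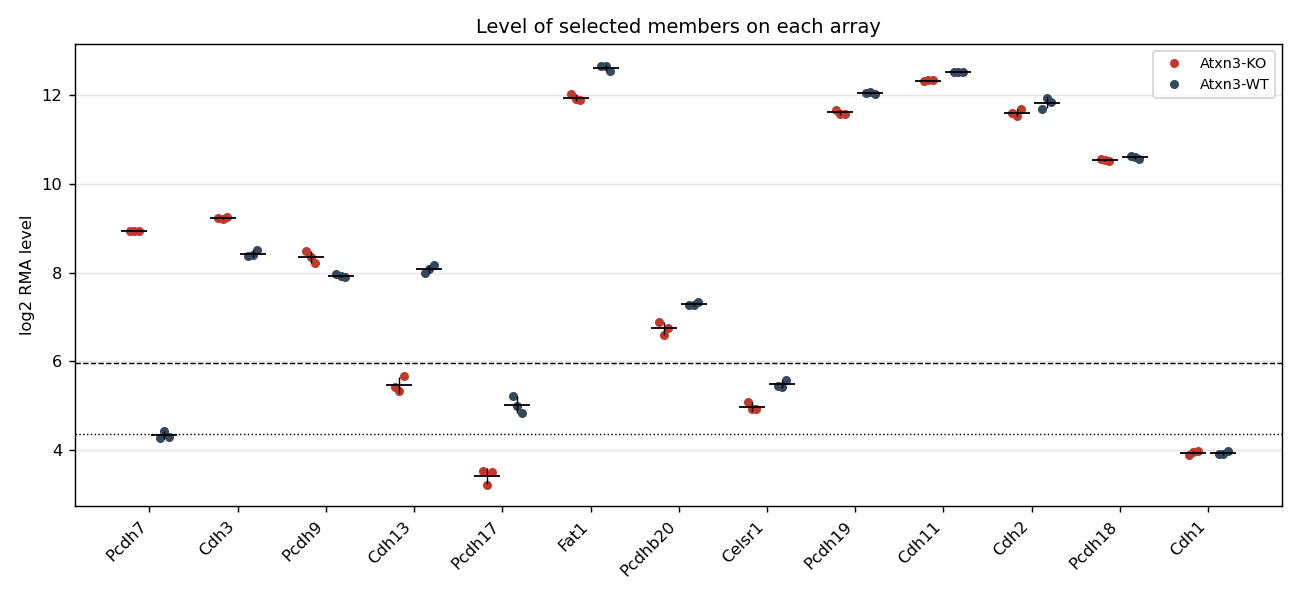
Log2 RMA level (vertical axis) of selected members on each of the 6 arrays, Atxn3-KO in red at left and Atxn3-WT in dark blue at right for each gene, with a black bar at the mean and a line for 1 SD (n = 3). The dotted line marks the lowest 25th percentile of an array (4.36) and the dashed line the lowest median (5.97). Pcdh7 is the one gene shown that stands at background in Atxn3-WT and above the median in Atxn3-KO MEFs, and Pcdh17 is at background in Atxn3-KO MEFs only.

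None of the 6 desmosomal cadherins passed with its brightest probe set. Dsc1, Dsc3, Dsg1a and Dsg1b, desmosomal cadherins of stratified epithelia, were at background in both genotypes, and Dsc2 was 4.75 on average in Atxn3-KO and 4.63 in Atxn3-WT MEFs. Dsg2, the desmoglein of simple epithelia and heart, had 6.40, 6.33 and 6.31 in Atxn3-KO MEFs, against 6.41, 6.46 and 6.34 in Atxn3-WT MEFs, with overlapping groups. Of its 6 probe sets 3 were lower, and the widest difference was -0.82 (adjusted p = 0.0038), from 4.28, 4.30 and 4.14 in Atxn3-KO and 4.87, 4.92 and 5.39 in Atxn3-WT MEFs. In all 3 the Atxn3-KO level was at background.

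Fat cadherins carry the longest ectodomains of the superfamily, and Fat1 regulates actin and growth signalling in many cell types. Fat1 had 12.03, 11.90 and 11.88 in Atxn3-KO MEFs, against 12.64, 12.65 and 12.53 in Atxn3-WT MEFs. The genotypes were well apart on all arrays, a 1.59-fold difference (-0.67, SE 0.061, adjusted p = 0.00028). Fat4, the receptor for the Dachsous cadherin Dchs1, moved the other way, with 7.79, 7.51 and 7.60 in Atxn3-KO and 7.43, 7.40 and 7.34 in Atxn3-WT MEFs.

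That difference of 0.24 fell just short of the threshold (adjusted p = 0.053), while the second Fat4 probe set passed at 0.39 (adjusted p = 0.0059) with 5.87, 5.78 and 5.84 in Atxn3-KO and 5.29, 5.54 and 5.47 in Atxn3-WT MEFs. Fat2, known from cerebellar granule cells, had 6.32, 6.24 and 6.34 in Atxn3-KO MEFs, against 6.21, 6.05 and 6.03 in Atxn3-WT MEFs. It passed narrowly (0.20, adjusted p = 0.0498) and lost the call in 5 of the 6 fits with 1 array left out, all but the fit without Atxn3-WT replicate 1. Fat3 was near background and did not pass.

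Celsr cadherins, the mammalian counterparts of fly Flamingo, carry planar polarity signals between neighbouring cells, and 2 of 3 were lower. Celsr1 had 5.10, 4.92 and 4.94 in Atxn3-KO MEFs, against 5.45, 5.42 and 5.59 in Atxn3-WT MEFs, a difference of -0.50 (SE 0.068, adjusted p = 0.0017) between groups that did not overlap, below the array median in both. Celsr2, which is known for axon guidance and cilia, had 7.34, 7.32 and 7.24 in Atxn3-KO MEFs, against 7.77, 7.61 and 7.55 in Atxn3-WT MEFs (-0.34, adjusted p = 0.0086), and its second probe set did not pass. Celsr3 differed by 0.07 and did not pass (adjusted p = 0.532).

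The delta-1 protocadherins, non-clustered members whose tails hold a docking site for protein phosphatase 1, included the widest difference of the superfamily. Pcdh7 (BH-protocadherin) had 8.93, 8.94 and 8.93 in Atxn3-KO MEFs, against 4.28, 4.45 and 4.30 in Atxn3-WT MEFs, where its mean was at background, so the fitted 24.1-fold difference is not exact. The Atxn3-KO arrays agreed within an SD of 0.0059, and every one lay above the 75th percentile of all arrays (8.85 to 8.89). A second probe set gave 9.10, 9.04 and 8.98 in Atxn3-KO and 3.74, 3.84 and 4.13 in Atxn3-WT MEFs, wider still at 5.14 (SE 0.099).

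The third Pcdh7 probe set rose less, with 5.83, 5.91 and 5.75 in Atxn3-KO and 4.71, 4.90 and 4.504 in Atxn3-WT MEFs (1.12, SE 0.10, adjusted p = 0.00025). All 3 read the gene as higher, by unequal amounts. Pcdh9, the delta-1 protocadherin most studied in cortex, had 8.48, 8.35 and 8.21 in Atxn3-KO MEFs, against 7.96, 7.91 and 7.90 in Atxn3-WT MEFs (0.42, SE 0.071, adjusted p = 0.0044). Its other probe sets differed by 0.18 (adjusted p = 0.055) and by -0.00060, with the dimmest of them at background. Pcdh1 and Pcdh11x, the remaining members of this class, differed by 0.03 and 0.13 and did not pass.

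The delta-2 protocadherins, whose tails recruit the actin-regulating WAVE complex, had 3 of 5 members lower and none higher. Pcdh17 had 3.53, 3.22 and 3.52 in Atxn3-KO MEFs, against 5.23, 5.01 and 4.84 in Atxn3-WT MEFs. The Atxn3-KO arrays were all at background, so the fitted 3.04-fold difference (-1.60, SE 0.12, adjusted p = 1.0e-04) is not exact, and the Atxn3-WT arrays were themselves below the median. The second Pcdh17 probe set gave -1.21 (adjusted p = 0.00012).

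Pcdh19, which is mutated in a human epilepsy and lies on the X chromosome, had 11.67, 11.58 and 11.57 in Atxn3-KO MEFs, against 12.05, 12.06 and 12.01 in Atxn3-WT MEFs. Its 3 probe sets were lower to nearly the same extent (-0.44, -0.41 and -0.42), each with groups apart and past the test. Pcdh18 stood at 10.56, 10.54 and 10.51 in Atxn3-KO and 10.62, 10.61 and 10.56 in Atxn3-WT MEFs, and the shift of -0.06 did not pass (adjusted p = 0.364). Pcdh10 (OL-protocadherin) was lower in Atxn3-KO MEFs (-0.16, adjusted p = 0.046), a call lost in all 6 fits with 1 array left out, and Pcdh8 was at background. Of the other non-clustered protocadherins, Pcdh20 (0.24, adjusted p = 0.056), Pcdh12 of endothelium and Pcdh15 of the hair cell tip link did not pass.

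The start regions of 3 of these protocadherins are shown because their genes differed in opposite directions. Each is the 250 bases before the RefSeq start in GRCm38.p6, 5′ to 3′ on the gene's strand: Pcdh7 at chr5:57717831-57718080 (+ strand), Pcdh17 at chr14:84443313-84443562 (+ strand) and Pcdh19 at chrX:133688994-133689243 (- strand). Capitals mark a GC box (GGGCGG or its reverse complement CCGCCC).
Pcdh7: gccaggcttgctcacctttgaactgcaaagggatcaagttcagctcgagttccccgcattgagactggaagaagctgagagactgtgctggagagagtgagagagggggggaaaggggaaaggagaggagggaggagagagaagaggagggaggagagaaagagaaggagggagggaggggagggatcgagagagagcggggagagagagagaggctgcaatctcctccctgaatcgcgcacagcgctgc
Pcdh17: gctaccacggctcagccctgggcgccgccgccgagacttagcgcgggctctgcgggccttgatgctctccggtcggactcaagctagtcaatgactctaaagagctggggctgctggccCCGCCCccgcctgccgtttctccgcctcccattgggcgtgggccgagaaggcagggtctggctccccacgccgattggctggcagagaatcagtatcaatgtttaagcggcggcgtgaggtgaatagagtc
Pcdh19: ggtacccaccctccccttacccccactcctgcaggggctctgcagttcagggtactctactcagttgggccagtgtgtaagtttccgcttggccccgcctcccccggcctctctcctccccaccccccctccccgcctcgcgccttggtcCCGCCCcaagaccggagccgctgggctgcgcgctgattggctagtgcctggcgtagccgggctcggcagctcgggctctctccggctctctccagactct

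Pcdh7 held 7 CpG dinucleotides and no GC box, and Pcdh17 held 21 and Pcdh19 held 16, with 1 GC box each. CpG counts overlapped between the directions. Pcdh9 and Fat2, which were higher, held 18 and 3, while Celsr2, Pcdh10, Fat1 and Cdh26, which were lower, held 32, 22, 2 and 0. Members that passed could be read in part only, as no window was at hand for Cdh13, Cdh3, Cdh11, Celsr1 and the lower beta genes. Among those with a window, a GC box stood in the lower Pcdh10, Pcdh17 and Pcdh19. It was absent from the higher Pcdh7, Pcdh9 and Fat2, and from the lower Celsr2, Fat1 and Cdh26. Pcdh18, which did not pass, held 23 CpG and 1 GC box. Whether these counts go with direction was not tested. The median of all 32851 windows was 6 CpG. RefSeq windows were at hand for 26 members (29 windows), whose median was 11 CpG. A GC box stood in 9 of the 29 windows (32.7% of all windows), a TATA box (TATAAA, either strand) in 2 (12.4% of all windows) and an E-box (CAGGTG, either strand) in 5 (17.2% of all windows). These motifs do not overlap one another, and a match is a stretch of letters, not a bound site.

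Clustered protocadherins made up 23 of the members, 22 beta genes and Pcdhgc4, and all lie in 1 stretch of chromosome 18. No beta gene was higher and 6 were lower: Pcdhb5, Pcdhb7, Pcdhb15, Pcdhb17, Pcdhb20 and Pcdhb22. Pcdhb20 had 6.89, 6.60 and 6.75 in Atxn3-KO MEFs, against 7.26, 7.26 and 7.34 in Atxn3-WT MEFs (-0.54, SE 0.075, adjusted p = 0.0019). Pcdhb22 had 7.89, 7.85 and 7.91 in Atxn3-KO MEFs, against 8.09, 8.32 and 8.26 in Atxn3-WT MEFs (-0.34, adjusted p = 0.0083). Pcdhb17 had 7.20, 7.34 and 7.33 in Atxn3-KO MEFs, against 7.64, 7.78 and 7.66 in Atxn3-WT MEFs (-0.40, adjusted p = 0.0026).

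In each of these 3 the Atxn3-KO arrays all lay below the Atxn3-WT arrays. They and Pcdhb21 were the 4 beta genes above the array median, all among the last 11 of the cluster as it runs along the chromosome. Pcdhb21, between Pcdhb20 and Pcdhb22, differed by only -0.03 (adjusted p = 0.717). The other 18 were below the median in both genotypes. Of the first 11 genes of the cluster 2 were lower, with mean levels of 3.27 to 5.10 over all 11, and of the last 11 genes 4 were lower, with mean levels of 3.48 to 8.05. Pcdhb19 was the most raised in value (5.74, 5.37 and 5.83 in Atxn3-KO, against 5.42, 5.31 and 5.32 in Atxn3-WT MEFs), and its 0.30 did not pass (adjusted p = 0.0997).

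Pcdhb7 and Pcdhb15 were at or close to background in both genotypes, so their calls (-0.49 and -0.29) rest on very low signal, and the call of Pcdhb5 (-0.35) was lost in 3 of the 6 fits with 1 array left out. The beta genes are single-exon genes of similar sequence, and probes of one may bind transcripts of another, so their values are not fully independent. Pcdhgc4, the only gamma gene read by probe sets of its own, had 5.27, 5.19 and 5.48 in Atxn3-KO and 5.31, 5.21 and 5.34 in Atxn3-WT MEFs. The groups overlapped. Chromosome 18 held 32 of the 69 members, the desmosomal genes and Cdh2 among them, and the 6 beta genes were the only ones there that passed. Whether 6 lower of 32 differs from the 14.7% of all genes that were lower was not tested.

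**Figure D3:**
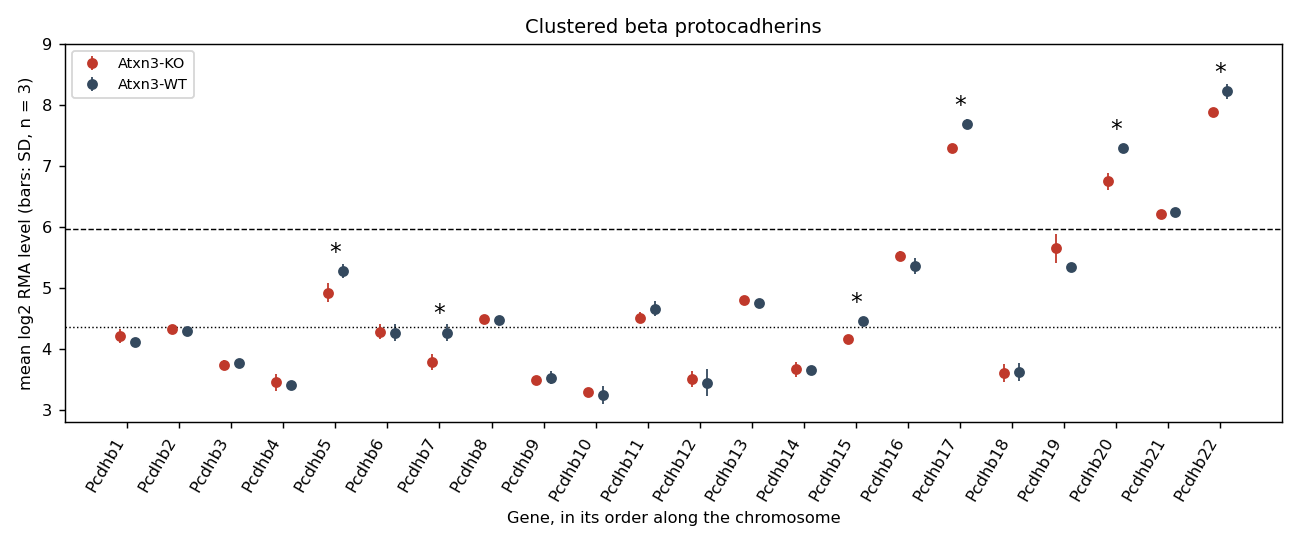
Mean log2 RMA level (vertical axis, bars 1 SD, n = 3) of the 22 beta protocadherins in their order along the cluster (horizontal axis), Atxn3-KO in red at left and Atxn3-WT in dark blue at right of each position. The dotted line is the lowest 25th percentile of an array (4.36), the dashed line the lowest median (5.97), and an asterisk marks a gene lower at an adjusted p under 0.05. Pcdhb17, Pcdhb20 and Pcdhb22 lie above the median with Atxn3-KO beneath Atxn3-WT, and Pcdhb21 shows no such gap.

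How far probe sets of 1 gene agreed bears on these calls. Of the 69 members 36 were read by 1 probe set and 33 by several. Among the 33, all probe sets of 4 genes passed in the same direction, those of 18 genes all failed to pass, and in 11 genes some passed and some did not. In 5 of the 11 (Cdh2, Cdh10, Dsg2, Fat4 and Pcdhb14) the brightest probe set was one that did not pass. No gene had probe sets called in opposite directions. Taking any probe set, 24 members had at least 1 that passed. The share of all genes under this rule was not computed, and a gene with several probe sets has more chances to pass.

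**Figure D4:**
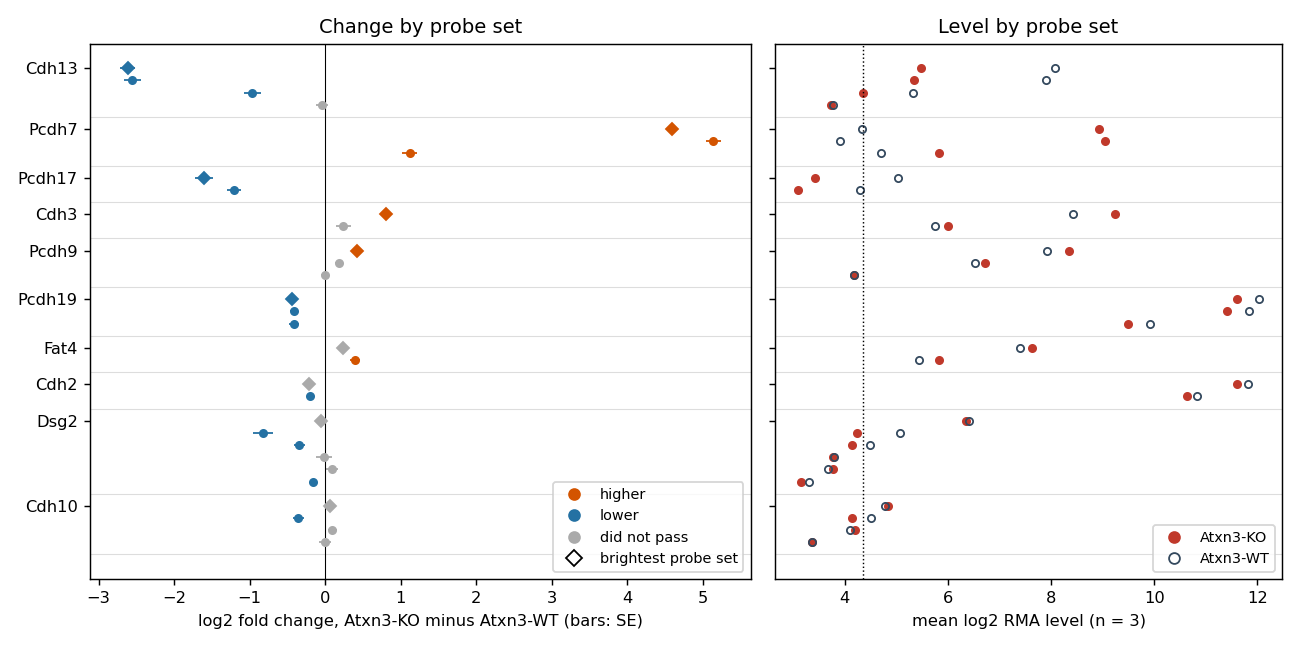
Every probe set of 10 members read by several, as log2 fold change (left panel, Atxn3-KO minus Atxn3-WT, bars SE) and as mean log2 RMA level (right panel, Atxn3-KO filled red, Atxn3-WT open, n = 3). Diamonds are the probe sets with the highest mean over all arrays, orange and blue mark those higher and lower at an adjusted p under 0.05, and the dotted line is the lowest 25th percentile of an array (4.36). Pcdh7 is higher in all 3 and Pcdh19 lower in all 3, while Cdh13 shows 3 lower probe sets and 1 at background.

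The partners of these receptors were read from 6 lists of 62 genes, 58 of them measured. At an adjusted p under 0.05, 13 were higher and 14 were lower, with a median difference of 0.0026 (0.0021 over all genes, of which 17.1% were higher and 14.7% lower). The lists are short, and their counts below are a description beside those shares. Among 13 catenins and armadillo partners 4 were higher and 3 lower. Beta-catenin (Ctnnb1), the shared anchor of classical cadherins, had 13.56, 13.61 and 13.55 in Atxn3-KO and 13.62, 13.58 and 13.56 in Atxn3-WT MEFs, with overlapping groups (adjusted p = 0.888). Delta-catenin (Ctnnd2), a neuronal relative of p120, was lower in Atxn3-KO MEFs (-0.68, SE 0.081), where it was at background. Plakophilin 2 (Pkp2), a desmosomal armadillo protein, was higher by 0.58 (SE 0.049), and alpha-catulin (Ctnnal1) by 0.55 (SE 0.054).

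The junction plaque held wide shifts in both directions, with 2 of 11 genes higher and 4 lower. Perp, a membrane protein needed for desmosomes in stratified epithelia, had 7.10, 7.24 and 7.39 in Atxn3-KO MEFs, against 5.41, 5.07 and 5.34 in Atxn3-WT MEFs (1.97, SE 0.11, adjusted p = 2.3e-05). Desmoplakin (Dsp), which ties desmosomes to intermediate filaments, moved the opposite way, with 4.32, 4.45 and 4.38 in Atxn3-KO and 6.11, 6.27 and 6.35 in Atxn3-WT MEFs (-1.86, SE 0.071, adjusted p = 4.9e-06). Both were apart on all arrays, while the desmosomal cadherins themselves did not pass with their brightest probe sets. The third in this list, Nectin3, an adhesion receptor of the immunoglobulin family, was higher by 0.30 (SE 0.041).

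Among 10 further genes with cadherin domains 3 were higher and 1 lower. Cdhr1, a photoreceptor cadherin, had 6.70, 6.88 and 7.00 in Atxn3-KO MEFs, against 4.92, 5.08 and 4.91 in Atxn3-WT MEFs (1.88, SE 0.085, adjusted p = 1.0e-05). Dchs1, the ligand of Fat4, had 8.85, 8.60 and 8.70 in Atxn3-KO MEFs, against 9.22, 9.15 and 9.13 in Atxn3-WT MEFs (-0.45, SE 0.069, adjusted p = 0.0028). Ligand and receptor thus differed in sign, with the Fat4 call resting on its dimmer probe set. The receptor tyrosine kinase Ret was higher by 0.36 (adjusted p = 0.041).

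Of 10 planar polarity partners of Fat and Celsr, 3 were lower and 1 was higher. Fjx1, whose fly relative four-jointed phosphorylates the ectodomains of Fat and Dachsous, had 6.41, 6.53 and 6.75 in Atxn3-KO MEFs, against 7.17, 7.12 and 7.07 in Atxn3-WT MEFs (-0.56, SE 0.085, adjusted p = 0.0028). Vangl2 (-0.33) and Fzd3 (-0.28), both core polarity proteins that work with Celsr1, were lower too, and Prickle2 was higher by 0.22. Vangl1 (0.06), Fzd6 (-0.01), Prickle1 (-0.09), Dvl1 (0.285), Dvl2 (-0.11) and Dvl3 (0.13) did not pass. Of 7 proteases that cut cadherins, the metalloprotease Mmp3 was higher by 0.24 and the gamma-secretase subunit nicastrin (Ncstn) was lower (-0.24) in Atxn3-KO MEFs.

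Repressors of E-cadherin, the zinc finger and Twist factors of epithelial-mesenchymal transition, split with 2 higher and 2 lower of 7. Slug (Snai2) had 12.03, 11.98 and 11.90 in Atxn3-KO MEFs, against 11.30, 11.26 and 11.28 in Atxn3-WT MEFs (0.69, SE 0.048, adjusted p = 8.0e-05). Twist2 (-0.36) and Zeb2 (-0.23) were lower, and Twist1 was higher by 0.20. Cdh1, their common target, was at background in both genotypes.

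Epithelial markers are given beside Cdh3 and Perp, since both are known from epithelia. Of 11 such markers 2 were higher, a share near the 17.1% of all genes, none was lower and 9 did not pass, and their mean level per array was 5.95 to 6.02 in Atxn3-KO and 5.77 to 5.85 in Atxn3-WT MEFs. Keratin 18 (Krt18) had 5.74, 5.51 and 5.64 in Atxn3-KO MEFs, against 4.38, 4.40 and 4.31 in Atxn3-WT MEFs. Its Atxn3-WT mean was at background and its Atxn3-KO mean was below the array median. Keratin 8 (Krt8), at means of 5.07 in Atxn3-KO and 5.02 in Atxn3-WT MEFs, did not pass (limma adjusted p = 0.489). Epcam had 8.99, 8.90 and 8.87 in Atxn3-KO and 8.48, 8.58 and 8.56 in Atxn3-WT MEFs. Esrp1, and Cdh1 from outside these 11, were at background in both genotypes. Other markers had means above the array median in both genotypes and did not pass. These were Krt19 (9.62 in Atxn3-KO and 9.34 in Atxn3-WT MEFs), Grhl2 (6.18 and 6.23) and Cldn3 (6.04 and 6.105). Whether epithelial cells had a part in the Cdh3 and Perp differences was not tested. Of the 8 neural markers, beside the protocadherins known from neurons, 2 were higher (Map2 by 1.55) and 3 lower (Stmn2 at -1.58). The shares of all genes were 17.1% higher and 14.7% lower. Their mean level was 6.21 to 6.23 in Atxn3-KO and 6.35 to 6.63 in Atxn3-WT MEFs. The top of the Atxn3-WT range came from replicate 2, where Snap25 had 4.93, against 3.79 and 3.40 in the other Atxn3-WT samples. The part of neural cells was not tested either.

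**Figure D5:**
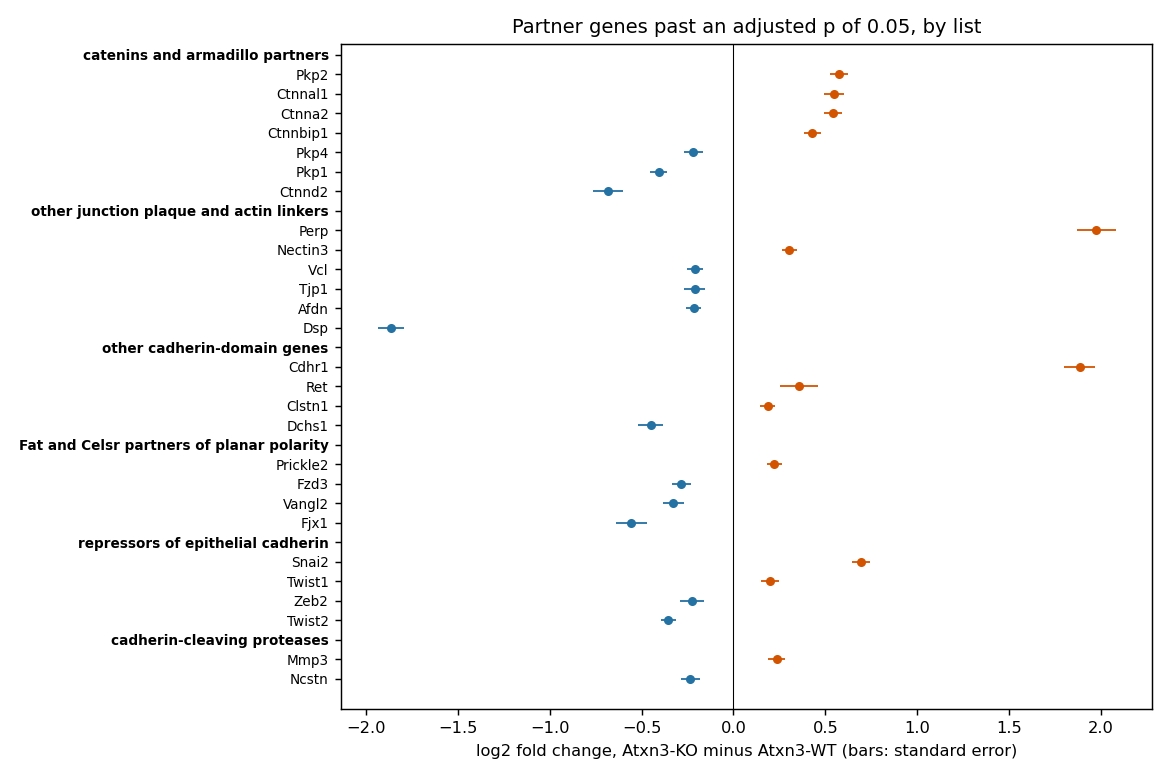
Log2 fold change (Atxn3-KO minus Atxn3-WT, horizontal axis, bars SE) of the 13 higher and 14 lower partner genes at an adjusted p under 0.05, grouped by list down the page. Orange points were higher and blue points lower in Atxn3-KO MEFs. Perp (1.97), Cdhr1 (1.88) and Dsp (-1.86) differ by more than 1 on the log2 scale, and the rest by less.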

How the data were processed

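The 6 Affymetrix mouse genome arrays were assigned to genotypes by their sample labels. The values deposited by the authors are on the log2 scale, after RMA (background correction, quantile normalization and summary of each probe set); the authors also name limma, and the weights of their linear model are not given in the sources used here. Because the quantile normalization of RMA leaves the arrays with nearly the same distribution (medians 5.968 to 6.002), a change shared by all genes could not be seen. For this report limma 3.58.1 under R 4.3.3 was run on the deposited values with 1 coefficient for genotype and all arrays weighted equally (lmFit, then eBayes). Benjamini-Hochberg adjustment covered 45037 probe sets, that is, all but 64 controls, without a filter on low levels. Gene names are those of the platform annotation, and all 69 members matched RefSeq of GRCm38.p6. Gene counts used only probe sets that name 1 gene, which set aside 932 with several names and 9160 with none.

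The members and lists were chosen with earlier results of these data known. Named members were those past the study's thresholds by any probe set, those past 0.05 with a log2 change of at least 0.5, the 8 with the highest mean, and 6 defining cadherins of cell types. Other members are named, after their values were seen, to account for each call and for each gene whose probe sets disagreed. Per partner list, up to 3 genes were named by size of change, and a few more after their values were seen. The fit was tested on simulated data, and the number of arrays limits its precision. The alternatives tried were estimated array weights, the replicate number as a block, a further quantile normalization, centring, a filter on low levels, a trended robust variance, other choices of probe set, and each array left out in turn.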

Additional observations from a re-analysis of the deposited data

How the results depend on the processing

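Pcdh7, Cdh13, Cdh3, Fat1, Pcdh19 and Pcdhb20 kept direction and call wherever their probe set stayed in and 1 probe set per gene was taken. The test against a 2-fold change was the exception, since only Pcdh7 and Cdh13 among them passed it. With the median over the probe sets of a gene, Cdh3 lost its call. With probe sets under the median mean level left out, 9 members were lower at an adjusted p under 0.05 in place of 15, 8 of them shared, and 1 in place of 2 passed the study's thresholds, since the dim genes, Pcdh17 among them, were no longer tested. Tested against a 2-fold change with limma's treat, 1 member (Cdh13) was lower and Pcdh17 was lost. With 1 array left out, 3 to 5 members were higher and 12 to 14 lower, and 1 and 2 passed the study's thresholds throughout. With the replicate block, 5 members were higher and 13 lower (1 and 2 past the study's thresholds), but the samples share only a number: the correlations of same-numbered deviations were 0.021, -0.023 and -0.036.

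Differences were recomputed under the alternatives for the 16 members named by rule, and not for the other members, some of which also lay near 0. Among the 16, signs turned in 3 with differences near 0. Cdh1 stood at -0.0063 with estimated array weights and at -0.015 to 0.026 with 1 array left out, Cdh5 at 0.0021 with centred arrays and at -0.042 to 0.015 with 1 array left out, and Cdh15 at -0.14 to 0.027 with 1 array left out. Cdh2 passed with estimated array weights (-0.24, adjusted p = 0.040), with the filter on low levels (-0.22, adjusted p = 0.029), with a trended robust variance (-0.22, adjusted p = 0.0053) and without Atxn3-WT replicate 1. Why these moved was not tested. With the probe set of the widest range, 18 members were lower and 5 higher. With the median over the probe sets of a gene, 13 were lower and 3 higher. There Cdh3, Pcdh9, Celsr2, Pcdh10 and Pcdhb15 lost their calls, and Fat4 and Cdh2 gained one. The RMA levels of dim probe sets carry no detection call, which limits every value near background.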

Other observations

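The alpha protocadherins are read by 6 probe sets that name 9 or 14 genes of the cluster each, so they belong to no single gene and stand outside the counts. They were chosen after their values were seen. One that names 14 genes had 5.67, 6.25 and 6.20 in Atxn3-KO MEFs, against 7.09, 7.18 and 7.17 in Atxn3-WT MEFs, a difference of -1.11 (SE 0.15, limma adjusted p = 0.0015), and the arrays of the genotypes did not overlap. A second gave 3.99, 4.15 and 4.12 in Atxn3-KO MEFs, at background, against 5.02, 4.94 and 4.96 in Atxn3-WT MEFs (-0.89, SE 0.056, adjusted p = 5.1e-05). Another, dim in both genotypes, was lower in Atxn3-KO MEFs (-0.26, adjusted p = 0.04995), and the other three differed by -0.30 (adjusted p = 0.072), -0.02 and 0.0087 and did not pass. None of the 6 was higher. As they name genes of 1 cluster, they may read the same transcripts and are not fully independent. The share of all probe sets that were lower was not computed.

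Among the genes set aside for their letters, Dscam, an immunoglobulin-family adhesion receptor of neurons, had 1 probe set that was higher, with 5.001, 5.03 and 5.43 in Atxn3-KO MEFs, against 4.16, 4.54 and 4.59 in Atxn3-WT MEFs (0.72, SE 0.15, adjusted p = 0.011). Another, at background in both genotypes, was lower (-0.17, adjusted p = 0.049), and its brightest one did not pass (0.07, adjusted p = 0.351).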
